A study of Mus musculus with 50 samples.

Results

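The proteasome genes of mouse liver were followed across 50 RNA-seq libraries. They were chosen by symbol, as protein-coding genes of the GENCODE M21 annotation whose name begins with Psma, Psmb, Psmc, Psmd, Psme, Psmf or Psmg and a digit. The pattern matched 50 annotated genes, of which 46 were among the 12185 genes of the table, and all 46 passed the filter of a mean of at least 1 normalized CPM used for tests. Psma8, Psmb11, Psme2b and Psmc3ip, which shares the letters but is no proteasome gene, were not analysed here. The choice used no measured value.

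The proteasome degrades proteins that carry ubiquitin chains. Its 20S core is a barrel with outer rings of alpha subunits (Psma genes) and inner rings of beta subunits (Psmb genes), and the catalytic sites sit on the beta subunits encoded by Psmb6, Psmb7 and Psmb5. The 19S cap, built from ATPases (Psmc genes) and non-ATPase subunits (Psmd genes), binds ubiquitin, unfolds the protein and feeds it into the core. In cells exposed to interferon the catalytic subunits can be replaced during assembly by Psmb9, Psmb10 and Psmb8, and the 11S activator of Psme1 and Psme2 is made. This immunoproteasome is known for cutting peptides for presentation on MHC class I. The constitutive genes are known as targets of the transcription factor NFE2L1 (NRF1), which acts through antioxidant response elements.

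All animals were untreated males that had been fasted overnight. Mice of the substitution strains B6.A4 and B6.A6, which are C57BL/6J with chromosome 4 or chromosome 6 of A/J, had each been crossed to C57BL/6J, and the hybrids of both crosses were mated with each other. In the offspring sequenced, A/J and C57BL/6J alleles segregated on chromosomes 4 and 6, and every other chromosome was of C57BL/6J origin in all of them. The labels call the animals adults of an F2 cross, and the study calls them N2 offspring of 5 weeks. Genotypes were not used here, so that no genotype class was formed, and the libraries make up 1 group without a control group. The library titles carry library numbers and animal numbers, and apart from 1 library the animal numbers ascend once through the 28 libraries numbered 1 to 30 and again through the 22 numbered 31 to 59, so these were compared as 2 sets. What the sets stand for is not given in the sources used here. The titles hold 48 distinct animal numbers for 50 libraries, so 4 libraries share a number with another. Between 11965594 and 29976557 reads were counted per library (median 13620584), and 3 reads corresponded to between 0.0951 and 0.259 normalized CPM, a floor that covers counting error only. The hepatocyte marker Alb had a mean of 76224 normalized CPM. In bulk tissue fewer cells of a type cannot be told apart from less RNA per cell.

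Of the 46 genes, Psmb2, a core beta subunit, was the member on chromosome 4 (126677630 to 126709714, + strand, GRCm38), and no member lay on chromosome 6. The other 45 lay on chromosomes that did not segregate in the cross. Psmb2 had values between 37.7 and 64.0 normalized CPM (median 46.7) and a coefficient of variation of 10.9%, at the 52.0 percentile of the 200 genes nearest in mean. Its variation was thus close to that of other genes of its level, and its correlation with the mean of the other 30 constitutive core and cap subunits was 0.865.

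The promoters are shown for genes on which the comparisons of immune and constitutive subunits turn. The stretches come from RefSeq (GRCm38.p6), lie upstream of a RefSeq transcript start and leave out bases covered by an annotated exon. Psmb5 and Psmb6 encode constitutive catalytic subunits, and the capitals mark the core letters TGACNNNGC of an antioxidant response element. Psmb10 encodes an immune catalytic subunit, and its stretch held none of the motifs searched. The positions are chr14:54618023-54618245 (- strand) for Psmb5, chr11:70525107-70525356 (+ strand) for Psmb6 and chr8:105938445-105938642 (- strand) for Psmb10.
Psmb5: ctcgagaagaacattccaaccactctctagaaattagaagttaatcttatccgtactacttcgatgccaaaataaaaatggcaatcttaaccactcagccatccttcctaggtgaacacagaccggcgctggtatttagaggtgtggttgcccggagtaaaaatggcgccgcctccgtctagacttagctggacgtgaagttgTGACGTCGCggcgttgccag
Psmb6: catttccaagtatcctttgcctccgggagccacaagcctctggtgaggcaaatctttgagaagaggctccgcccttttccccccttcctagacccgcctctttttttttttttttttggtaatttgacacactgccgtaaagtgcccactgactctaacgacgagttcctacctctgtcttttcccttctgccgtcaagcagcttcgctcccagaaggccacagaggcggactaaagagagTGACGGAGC
Psmb10: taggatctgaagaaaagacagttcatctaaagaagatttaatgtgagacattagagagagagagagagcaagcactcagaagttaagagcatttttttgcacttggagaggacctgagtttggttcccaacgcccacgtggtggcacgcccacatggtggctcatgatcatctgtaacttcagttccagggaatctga

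For 39 of the 46 members a window of 250 bases upstream of a start was at hand, and motifs were searched on both strands. The letters TGACNNNGC stood 47 bases before the start of Psmb5 and 9 bases before that of Psmb6. They were found in 4 of 25 constitutive subunit genes, also Psmc6 and Psmd12, in 0 of 5 immune genes and in 11.5% of all 27025 genes with a window. The letters of an interferon-stimulated response element, GAAA and again GAAA after 2 bases of any kind, were in 2 of 25 constitutive genes, Psmb3 and Psmd4, in 0 of 5 immune genes and in 3.46% of all genes. The gamma-activated letters TTCNNNGAA were found in 0 of 25 constitutive genes and in 1 of 5 immune genes, Psmb8, at 97 bases before its start, against 8.13% of all genes. CCAAT was in 10 of 25 constitutive genes and in 1 of 5 immune genes, Psmb9, against 37.5%. These counts took whole windows, with bases of annotated exons kept. The windows of Psmb8, Psmb9 and Psme1 lay within the annotated span of the gene. The matches in Psmb8 and Psmb9 are thus not upstream of the whole gene, and the immune counts rest in part on such windows. A match describes letters and is not a measured binding site, and no match says only that the letters are absent from the window.

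The constitutive subunits were abundant, and most of them, though not most beta genes, varied less than genes of like level. The 31 constitutive core and cap subunits had means between 33.7 and 143 normalized CPM, with a median coefficient of variation of 10.9% (6.47 to 15.7%), where the median over all genes was 17.2%. Counting error, the Poisson share of the variance, came to a median of 7.36% for them. Against the 200 genes nearest in mean, 20 of the 31 lay below the 50th percentile of variation and 11 above. Of the 7 constitutive beta genes 6 lay above it, and all 6 ATPase genes lay below.

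Levels were compared between genes per kilobase of annotated exons, in normalized CPM per kb. The 7 alpha genes, Psma1 to Psma7, ran from 16.2 for Psma2 to 67.5 ± 7.50 (SD, n = 50) for Psma6, a 4.18-fold spread. The 7 beta genes, Psmb1 to Psmb7, ran from 19.1 for Psmb1 to 47.6 for Psmb4, a 2.49-fold spread. The 6 ATPase genes, Psmc1 to Psmc6, ran from 13.2 for Psmc2 to 53.6 ± 5.78 (SD, n = 50) for Psmc1, and the 11 non-ATPase genes from 10.3 for Psmd1 to 35.3 for Psmd2. Psma6 and Psmc1 were the highest of all members per kilobase of exons. With the length of the longest protein-coding transcript in place of all exons, the order changed, with Psmb6 (98.5) and Psmb7 (81.7) above Psma6 (79.98) and Psmc1 (65.1), and Psmb5 (37.4) the lowest beta gene, while Psmg3 and Psmb9 were the lowest members in both. Psma6 values lay between 69.8 and 118 normalized CPM (median 82.6), and Psmc1 values between 84.0 and 128 (median 104).

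Per kilobase of exons, assembly factors were found at lower levels than the constitutive subunits. The highest means were 9.41 for the 20S and 6.74 for the 19S chaperones, and the lowest constitutive mean was 10.3. The 20S chaperones Psmg1 to Psmg4, which help the alpha rings to form, had means between 2.73 and 12.6 normalized CPM. Psmg3 was the lowest member per kilobase, at 0.953 ± 0.224 (SD, n = 50), with values between 1.37 and 4.69 normalized CPM (median 2.69). Counting error was 44.7% of its variance. The 19S chaperones Psmd5, Psmd9 and Psmd10, which bind the ATPases before the cap is built, had means of 21.2, 48.8 and 6.87 normalized CPM. In this unit Psmd9 lay within the constitutive range of 33.7 to 143. Psmd9 varied between 34.9 and 66.9 (median 48.3) and stood at the 76.5 percentile of variation, although 25.5% of its exon length overlaps a non-coding gene on the opposite strand. The activators Psme3 (PA28 gamma) and Psme4 (PA200) had means of 41.4 and 109.7 normalized CPM, which per kilobase were close, at 14.04 and 13.1. Psmf1, an inhibitor of the core, had a mean of 28.2 normalized CPM.

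Among the members with the steadiest values were Psmc6, at the 1.0 percentile of variation, and Psmd11, at the 4.0 percentile. Psmc6, an ATPase, stayed between 47.3 and 61.5 normalized CPM (median 53.5), and Psmd11, a cap subunit, between 62.0 and 82.9 (median 73.7). Both coefficients of variation were 6.47%, of which counting error made up 30.2% of the variance for Psmc6 and 22.04% for Psmd11.

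**Figure D1:**
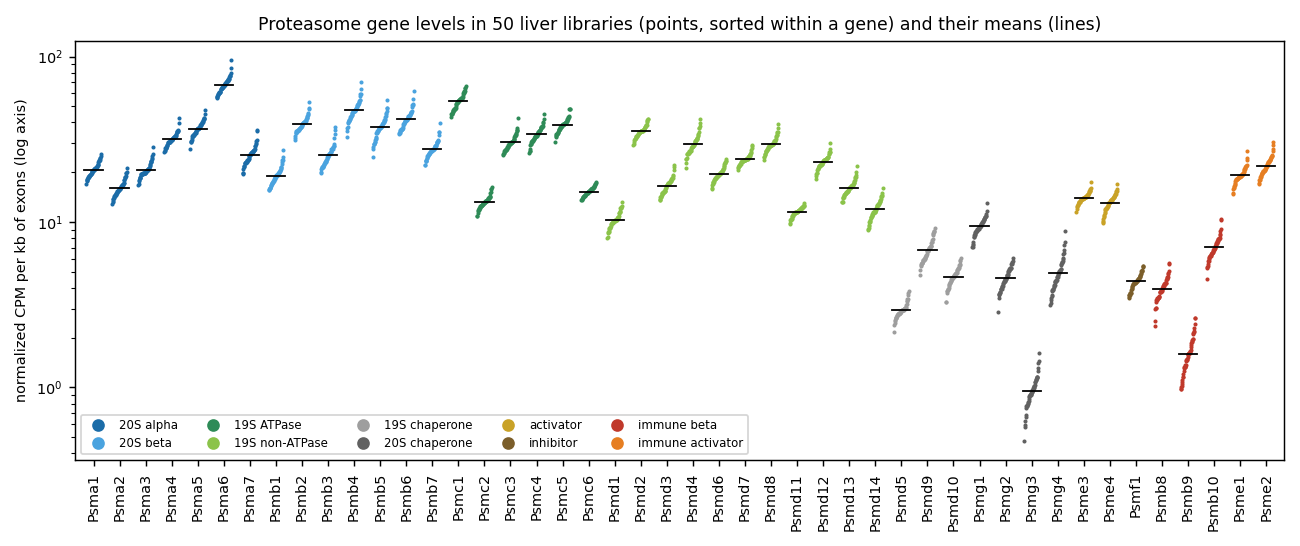
Levels of the 46 proteasome genes (x axis) in normalized CPM per kb of annotated exons (y axis, log scale), coloured by role, with 1 point per library sorted by value within each gene and a line at the mean of the 50 libraries. Psma6 has the highest mean (67.5) and Psmg3 the lowest (0.953), and the immune beta genes Psmb8, Psmb9 and Psmb10 have lower means than every constitutive subunit.

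The immune beta genes were low and variable. Psmb8 (chromosome 17, 34197721 to 34201454, + strand), which takes the place of Psmb5, had values between 7.94 and 19.1 normalized CPM (median 13.1). Psmb9 (chromosome 17, 34181987 to 34187764, - strand), which takes the place of Psmb6, had values between 3.58 and 9.68 (median 5.78). Psmb10 (chromosome 8, 105935735 to 105938444, - strand), which takes the place of Psmb7, had values between 7.75 and 17.8 (median 11.7).

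All 3 were thus above the floor of 3 reads in each of the 50 libraries, the lowest being 46 reads for Psmb9. Their coefficients of variation were 17.1%, 26.4% and 16.8%, and their percentiles of variation 70.0, 87.5 and 72.5. Psmb9 had the highest percentile of the 46 members, with counting error at 16.6% of its variance. Per kilobase, Psmb9 was the second lowest member, at 1.60 ± 0.423 (SD, n = 50).

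The 11S activator genes were closer to the constitutive subunits. Psme1 (chromosome 14, 55578123 to 55581529, + strand) had values between 32.8 and 59.2 normalized CPM (median 41.8), and Psme2 (chromosome 14, 55587441 to 55591113, - strand) between 30.1 and 53.8 (median 37.8). Their products join in 1 ring, and the ratio of Psme1 to Psme2 per kilobase was 88.0 ± 7.32% (SD, n = 50).

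The genes they replace had the following values. Psmb5 lay between 22.1 and 49.3 normalized CPM (median 33.7), Psmb6 between 63.7 and 117 (median 77.7) and Psmb7 between 75.7 and 135 (median 93.4). The coefficients of variation were 15.7%, 13.8% and 12.1%, each below that of the immune gene in its place, and per kilobase the means were 37.4 ± 5.90, 42.01 ± 5.79 and 27.7 ± 3.36 (SD, n = 50). Against the 200 genes nearest in mean, the percentiles of variation were 68.5, 62.0 and 49.5. At like level Psmb5 was thus close to Psmb8 (70.0), while Psmb6 and Psmb7 lay below Psmb9 (87.5) and Psmb10 (72.5).

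Some of these genes share sequence with other annotated genes, which the counting may have split or dropped. Of the 31-base stretches of annotated transcripts, 71.7% for Psmb5, 61.0% for Psma5 and 33.5% for Psme2 also occur in another gene, in the case of Psme2 in its copy Psme2b. For Psmb8 the share was 13.7%, mostly with an annotated antisense gene, and for Psmb10 it was 0. On the opposite strand 11.8% of the exons of Psmb7 overlap those of Nek6. How reads that match several genes were counted is not given in the sources used here, so the levels of Psmb5, Psma5 and Psme2 are uncertain, and likewise those of Psmc1 (32.2%) and Psmd2 (31.6%).

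The immune to constitutive ratio was taken per kilobase in each library. Psmb8 stood at 10.7 ± 2.0% (SD, n = 50) of Psmb5, from 5.36% in library 30 to 17.3% in library 1. Psmb9 stood at 3.85 ± 1.06% of Psmb6, from 2.25% in library 11 to 7.48% in library 24. Psmb10 stood at 25.6 ± 4.55% of Psmb7, from 17.6% in library 50 to 37.3% in library 34. With the length of the longest annotated protein-coding transcript in place of all exons, the ratios were 22.2%, 4.45% and 11.3%, so that the order of Psmb8/Psmb5 and Psmb10/Psmb7 turned, and only the place of Psmb9/Psmb6 as the lowest of the 3 held in both.

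The constitutive subunits rose and fell together from library to library. Pearson's r was taken on log2(normalized CPM + 0.5) over the 50 libraries, and the values are a description, since the points share libraries and their depth. Over the 465 pairs of constitutive subunits the median r was 0.668, and 463 pairs were positive, where the median over all gene pairs was -0.0020. The median was 0.848 among the beta genes, 0.775 among the alpha genes, 0.640 among the ATPase genes and 0.585 among the non-ATPase genes. The first principal component held 65.5% of the standardized variance of the 31 genes, and 61.8% without library 44, which is described below.

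Psma6 followed the mean of the other constitutive subunits most closely, with r = 0.933, and Psmb4, a core beta subunit, was next with 0.907. Psmd1, the large scaffold of the cap base, followed it least among the 31, with 0.286, and Psmd11 came after it with 0.407. Among the other members Psme4 had r = -0.0813, Psme3 0.277, Psmf1 0.287, the 20S chaperones between 0.312 and 0.553 and the 19S chaperones between 0.485 and 0.535.

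The immune genes formed a looser group of their own. Their 10 pairs had a median r of 0.570, all of them positive. Against the constitutive subunits the immune beta genes had a median r of 0.178 over 93 pairs, and Psme1 and Psme2 one of 0.479 over 62 pairs. With the mean of the constitutive subunits, r was 0.223 for Psmb8, 0.192 for Psmb9, 0.0827 for Psmb10, 0.496 for Psme1 and 0.531 for Psme2. Without library 44 the values were 0.106, 0.172, -0.0862, 0.384 and 0.442.

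**Figure D2:**
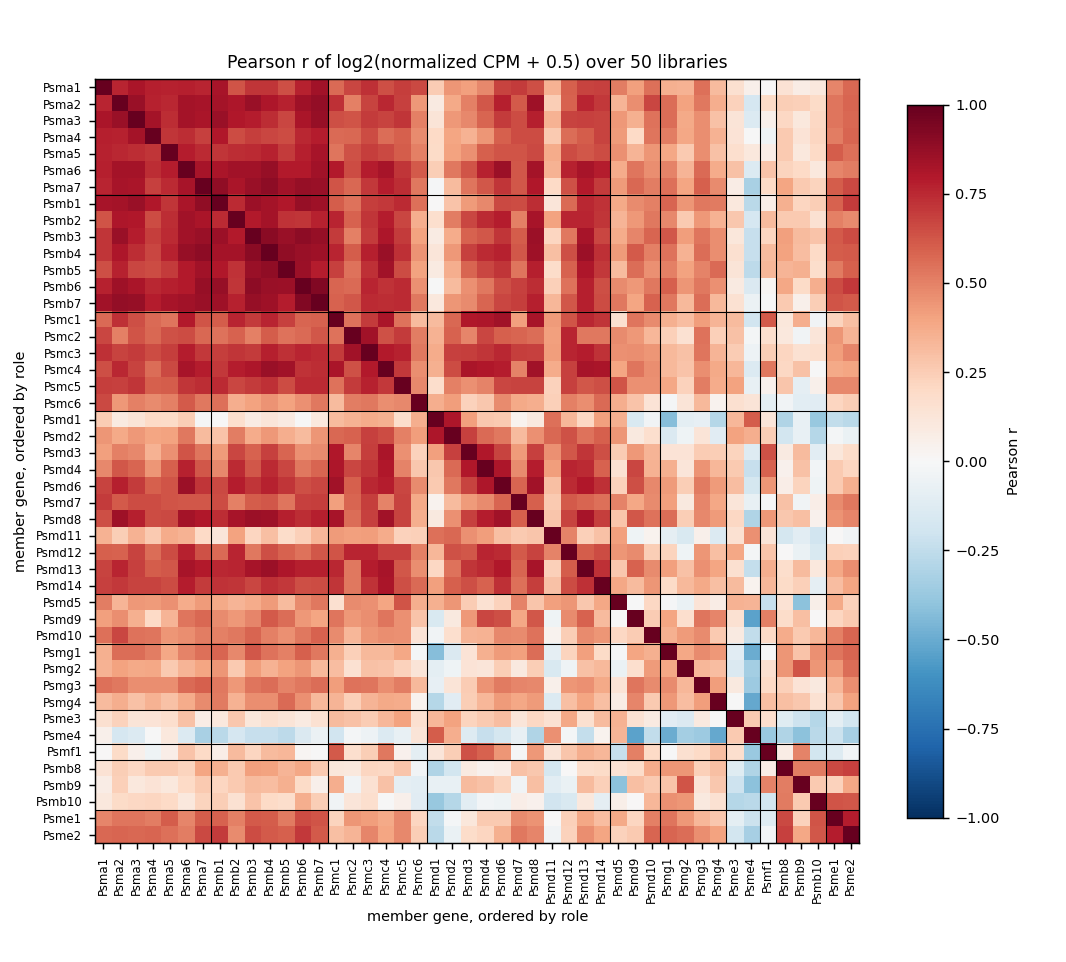
Pearson r of each pair of the 46 proteasome genes over 50 libraries, on log2(normalized CPM + 0.5), with genes on both axes ordered by role and lines between roles. The core subunits at the top left form a block (median r 0.848 among the beta genes), Psmd1 and Psmd11 are paler rows within the cap, and the 5 immune genes at the lower right correlate with each other (median r 0.570).

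Chosen pairs of genes were tested over the libraries, 8 in all, with 2-sided permutation tests of 100000 resamples. Psmb8 and Psmb9, neighbours in the MHC region, had r = 0.514 (rho = 0.558, adjusted p = 0.00024 by permutation), and r was 0.447 and 0.548 within the 2 sets of libraries. Psmb10 and Psmb8 had r = 0.520 (rho = 0.436, adjusted p = 0.00024 by permutation), and 0.405 and 0.613 within the sets. Psme1 and Psme2 had r = 0.782 (rho = 0.736, adjusted p = 2.67e-05 by permutation), and 0.779 in each set. Psmb5 and Psmb6 had r = 0.859 (rho = 0.871, adjusted p = 2.67e-05 by permutation). For the last 2 pairs the raw p of 1e-05 was the smallest that the permutations can give.

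Without the 2 libraries farthest from the median of the first gene, r was 0.510 for Psmb8 and Psmb9, 0.383 for Psmb10 and Psmb8, 0.707 for Psme1 and Psme2, and 0.862 for Psmb5 and Psmb6. These 4 relations held without the extreme libraries.

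Psmb9 also moved with Tap1, a subunit of the transporter that carries peptides to MHC class I. The pair lies head to head on chromosome 17, and 212 bases of annotated exons overlap on opposite strands, 5.79% of the exons of Psmb9. Their r was 0.733 (rho = 0.683, adjusted p = 2.67e-05 by permutation, the smallest possible), with 0.846 and 0.503 within the sets and 0.666 without the 2 farthest libraries. The kit marks strand, but the strand setting of the counting is not given in the sources used here, so the part of the overlap in this relation was not tested.

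Immune subunits and the subunits they replace were not tightly linked. Psmb8 and Psmb5 had r = 0.341 (rho = 0.359, adjusted p = 0.0205 by permutation), with 0.155 and 0.499 within the sets and 0.260 without library 44, where it no longer passed the threshold (adjusted p = 0.0943 by permutation). Psmb9 and Psmb6 had r = 0.190 (adjusted p = 0.187 by permutation), and Psmb10 and Psmb7 had r = 0.246 (adjusted p = 0.0974 by permutation) and 0.0998 without library 44. Within the sets r was 0.0915 and 0.191 for Psmb9 and Psmb6, and 0.0640 and 0.358 for Psmb10 and Psmb7.

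One library stood apart for the proteasome genes. Library 44 held the highest of the 50 values for 26 of the 46 members, among them all 7 constitutive beta genes, 21 of the 31 constitutive subunits and 3 of the 5 immune genes. It held the highest value for 9.82% of all 11436 genes and the lowest for 8.9%. Its values exceeded the median of the other 49 libraries by a median of 1.35-fold for the constitutive subunits and 1.46-fold for the beta genes. The same count of 26 members was found with DESeq2 scaling. TMM scaling gave the same counts as the deposited values (1123 genes highest in both) and is not a separate check.

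Psmb4 reached 137 normalized CPM in library 44, where the median of the other libraries was 91.7 and their highest value 124.5. Psmb6 reached 117 against a median of 77.6 and a highest value of 104. Psmb10 reached 17.8 against a median of 11.6, while another library had 17.6. Psmd1 (rank 35 of 50), Psme3 (rank 41) and Psme4 (rank 44) were not high in it. Library 44 had 13694310 counted reads, close to the median, so its depth was ordinary.

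Partners of the proteasome did not stand high as a list in library 44. Of 19 proteasome partner genes tested, 8 lay above the median of the other libraries, with a median log2 difference of -0.06. Highest in it were 3 of the 19 (15.8%, against 9.82% of all genes), namely Pomp (the maturation factor of the core), the deubiquitinase Uchl5 and Fbxo7, with Pomp at 77.0 normalized CPM against a median of 54.1. Ddi2, the protease that activates NFE2L1, was lowest of all 50 in it, at 105.0 against a median of 153.5, and Nfe2l1 itself ranked 46, at 70.2 against 86.5. Of 13 ubiquitin and p97 genes, 4 were highest in it, with Ubb, Vcp and Ufd1 among them. None of 6 NRF2 target genes was highest in it.

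Library 6 was at the other end. It held the lowest value for 9 of the 46 members, where it was lowest for 1.15% of all genes, and the highest for 0 members, where it was highest for 1.16% of all genes. The standardized mean of the constitutive subunits was -1.53 in library 6 and 2.38 in library 44, and that of the immune genes -0.393 and 2.14.

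The level of the proteasome genes went with the length of transcripts that each library favoured. A transcript length index was taken for each library as Spearman's rho, over the 10941 genes with a protein-coding transcript, between transcript length and the gene's deviation from its mean over libraries. A negative index means that short transcripts were relatively high. It ran from -0.654, in library 44, to 0.363. It was computed with the members among the genes, and no p is given for it.

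The mean level of the constitutive subunits had r = -0.669 with the index (rho = -0.605), -0.724 and -0.771 within the sets of libraries, -0.606 without library 44 and -0.576 without the 2 farthest libraries. The mean level of the immune genes had r = -0.751 (rho = -0.746), -0.659 and -0.834 within the sets and -0.708 without library 44. With the logarithm of the counted reads, r was 0.0577 for the constitutive and 0.317 for the immune level.

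The members differed in their relation to the index. Psma7, with 1157 bases in its longest protein-coding transcript, had r = -0.809 with the index and Psmb3, with 766 bases, -0.786. Psmd1, with 3112 bases, had 0.380 and Psme4, the longest at 6491 bases, 0.621. Length did not order them throughout, since Psma2 (2911 bases) had -0.736 and Psma3 (2846 bases) -0.674, while Psmd2 (2961 bases) had 0.0445. Of the 31 constitutive subunits 28 had a negative r, with a median of -0.583, where the median over all genes tested was -0.0236.

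With the index removed from every gene, the constitutive subunits still moved together and parted from the immune beta genes. The median r among constitutive subunits was then 0.565, with all 465 pairs positive. That among the immune genes was 0.395, with 9 of 10 pairs positive and the lowest at -0.122. The median r between constitutive subunits and immune beta genes turned from 0.178 to -0.187, with 8 of 93 pairs positive, and that with Psme1 and Psme2 went from 0.479 to 0.0649, with 43 of 62 pairs positive. Of the pairs of genes, Psmb8 and Psmb5 turned from 0.341 to -0.114, Psmb9 and Psmb6 from 0.190 to -0.285 and Psmb10 and Psmb7 from 0.246 to -0.157. With the index removed r was 0.355 for Psmb8 and Psmb9, 0.345 for Psmb10 and Psmb8, 0.542 for Psme1 and Psme2, 0.676 for Psmb5 and Psmb6 and 0.713 for Psmb9 and Tap1. The index was chosen after seeing the data, and what sets it was not tested.

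**Figure D3:**
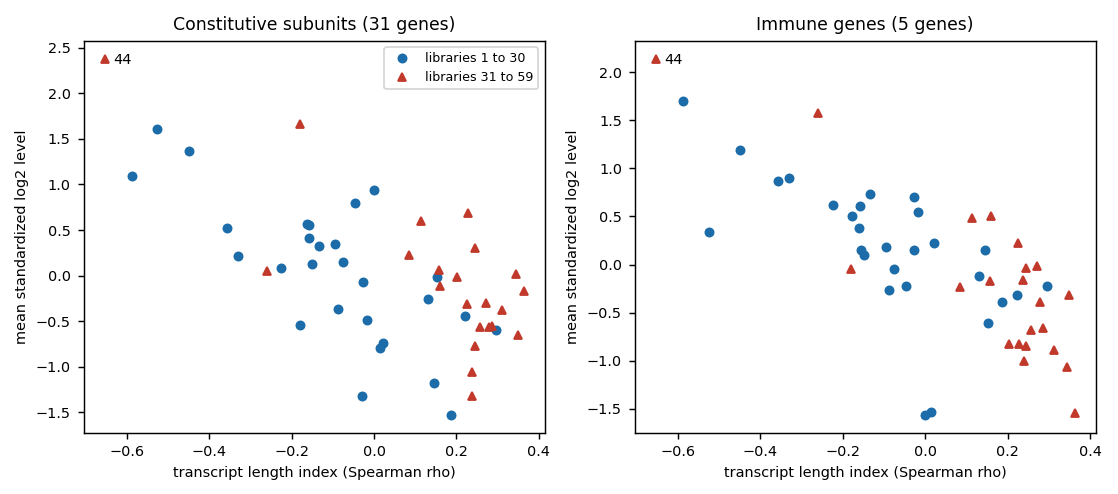
Mean standardized log2 level of the 31 constitutive subunits (left) and the 5 immune genes (right) against the transcript length index (x axis, Spearman rho over genes), with 1 point per library, circles for libraries 1 to 30 and triangles for libraries 31 to 59. Both levels fall as the index rises (r -0.669 and -0.751), and library 44 has the lowest index and the highest level in both panels.

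Outside the members, among the 8 genes most like the constitutive level were Cops5 (r = 0.853), the catalytic subunit of the COP9 signalosome, Ran (0.834), the GTPase of nuclear transport, Cox6a1 (0.831), Uqcrb (0.827), Cox6b1 (0.818), Pdap1 (0.814) and Prdx5 (0.805). Cox6a1, Uqcrb and Cox6b1 encode subunits of the respiratory chain. Those most like the immune level were Txndc17 (r = 0.778), Prelid1 (0.763), Selenow (0.753), Mvb12a (0.752), Mrpl14 (0.751), the MHC class I gene H2-T22 (0.746), Ap2s1 (0.746) and S100a16 (0.737). These r are over 50 libraries, and without library 44 they lay between 0.688 and 0.819. Both levels went with the transcript length index, and its part in these r was not tested. Of the partner list, Adrm1, the ubiquitin receptor of the cap, had r = 0.724 and Pomp 0.713 with the constitutive level, while the 19 partners had a median of 0.126.

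Immune and constitutive genes mostly had slopes of opposite sign against the interferon-stimulated genes of a library, though of all members only Psmd4 passed. An interferon score was taken as the mean standardized log2 level of 28 interferon-stimulated genes, such as Irf7, Isg15 and Gbp2, without any proteasome or antigen presentation gene. With limma and Benjamini-Hochberg adjustment over all 11436 genes, 279 genes (2.44%) were related to the score, 166 higher (1.45%) and 113 lower (0.988%), with 24 of the 28 score genes among them.

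Of the 46 members 1 passed, close to the share of all genes, and 17 had an unadjusted p under 0.05, where 15.6% of all genes had. None of the 5 immune genes passed (4 of them had an unadjusted p under 0.05, and edgeR called 0). The slopes of the immune genes, as log2 change per unit of score, were 0.12 ± 0.05 (SE) for Psmb8 (adjusted p = 0.190), 0.15 ± 0.07 for Psmb9 (adjusted p = 0.297), 0.13 ± 0.05 for Psmb10 (adjusted p = 0.142), 0.05 ± 0.04 for Psme1 (adjusted p = 0.530) and 0.11 ± 0.04 for Psme2 (adjusted p = 0.128). All 5 slopes were positive. Over their alternatives the adjusted p of Psme2 ran from 0.00206, with the length index as a covariate, to 0.987, and those of the other 4 did not reach the threshold in any alternative.

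The constitutive slopes were negative for 30 of 31 genes, with a median of -0.06, where the median over all genes was -0.0002 and 5699 of 11436 slopes were positive. The constitutive subunits moved together over the libraries (median r 0.668), so the signs of their slopes are not 31 separate results. Psmd4, the ubiquitin receptor of the cap (S5a), fell with the score, by 0.15 ± 0.04 per unit (adjusted p = 0.0342). Its values lay between 59.7 and 119 normalized CPM (median 81.1). It passed in 14 of 18 alternatives, with an adjusted p between 0.00473 and 0.716, and not within either set of libraries alone, where its slopes were -0.14 and -0.16. In libraries 1 to 30 alone 7 of the 31 constitutive slopes were positive, and in libraries 31 to 59 alone 0 of 31. With higher animal numbers 6 of the 28 interferon genes fell (6.73% of all genes did), with a median log2 change of -0.12. The median change with animal number was -0.10 for the immune genes (1 of 5 positive) and 0.03 for the constitutive subunits (20 of 31 positive). Animal number was not held in these fits or in the ratios below, and its part in them was not tested.

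**Figure D4:**
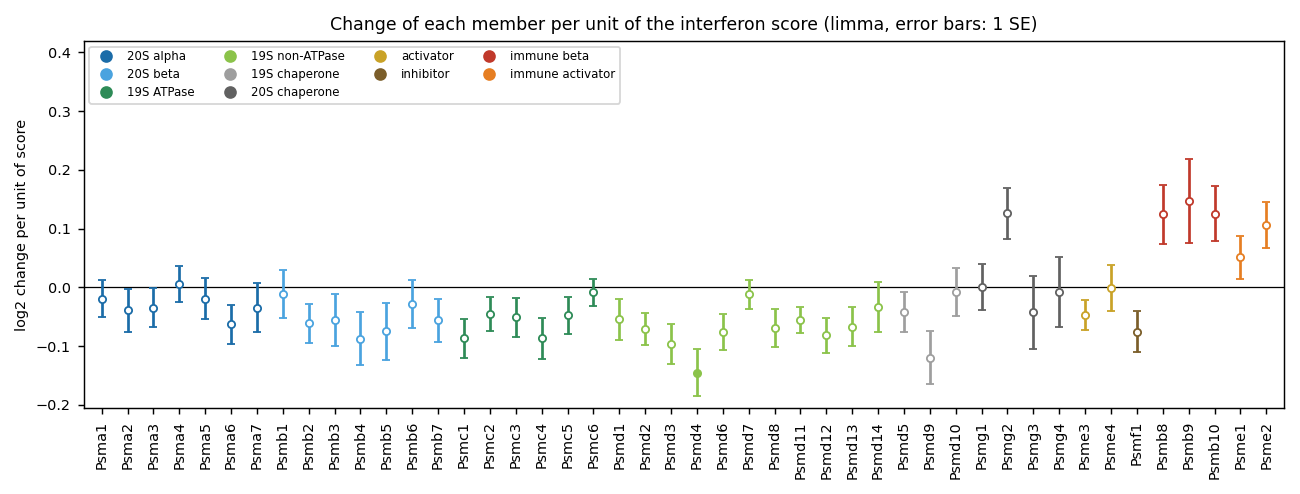
Change of each of the 46 proteasome genes (x axis) per unit of the interferon score, in log2 units (y axis), from limma over 50 libraries, with error bars of 1 SE and the called gene filled. The 5 immune genes at the right lie above 0 with none called, and 30 of the 31 constitutive subunits lie below, of which Psmd4 was called.

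The ratio of each immune beta gene to its constitutive counterpart was set against the same score, a comparison added after the data were seen. The log2 ratio rose with the score for Psmb8/Psmb5 (r = 0.485, rho = 0.471, adjusted p = 0.00051 by permutation over 3 relations), for Psmb10/Psmb7 (r = 0.479, rho = 0.461, adjusted p = 0.00051 by permutation) and for Psmb9/Psmb6 (r = 0.319, rho = 0.408, adjusted p = 0.0244 by permutation). In the same libraries Psmb8, Psmb9 and Psmb10 had positive slopes on the score, and Psmb5, Psmb6 and Psmb7 negative ones. The ratios restate these slopes, so their p-values are not separate support. They were adjusted over 3 relations and not over all genes.

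Within the sets r was 0.513 and 0.438 for Psmb8/Psmb5, 0.426 and 0.588 for Psmb10/Psmb7, and 0.259 and 0.402 for Psmb9/Psmb6. Without the 2 farthest libraries r was 0.390, 0.470 and 0.278. With the transcript length index removed r was 0.487, 0.479 and 0.320, and the ratios had r of 0.104, 0.00826 and -0.0614 with the index itself. The interferon score had r = -0.00167 with the index.

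**Figure D5:**
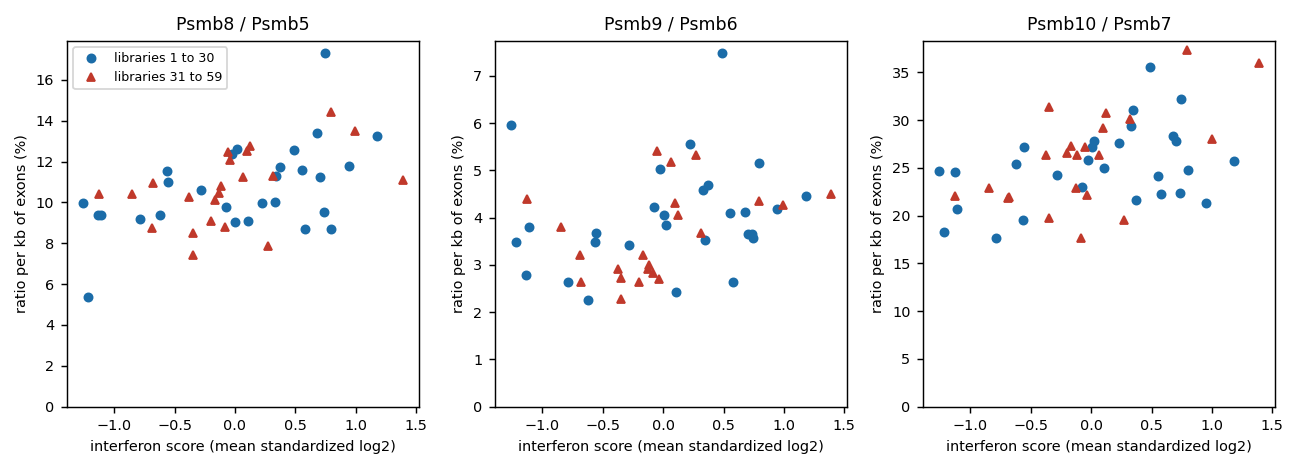
Ratio of each immune beta gene to the constitutive gene it replaces, in percent per kb of exons (y axes, from 0), against the interferon score (x axes, mean standardized log2 level of 28 genes), with 1 point per library, circles for libraries 1 to 30 and triangles for libraries 31 to 59. The ratios rise with the score, with r of the log2 ratio 0.485, 0.319 and 0.479 from left to right.

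Leukocytes, which carry immunoproteasomes, are part of bulk liver. A leukocyte score over 20 marker genes of blood cells and Kupffer cells (of 24 listed) was related to 170 genes (1.49%), with 18 of the 20 score genes among them, and to 0 of the 46 members by limma or edgeR. Of all genes 1.44% were higher and 0.0437% lower with the score, and 8.42% had an unadjusted p under 0.05, as 1 member, Psmb8, had. Psmb8 had a slope of 0.11 ± 0.05 (SE, adjusted p = 0.476). The immune level had r = 0.204 with the score (-0.0157 and 0.398 within the sets), and with the 20 marker genes singly a median r of 0.140 (-0.242 to 0.517). The interferon and leukocyte scores had r = 0.0273 with each other. Cd3e, Cd3g and Nkg7 were not analysed here, and Cd79a had a mean below 1. Of the endothelial markers Pecam1, Stab2 and Kdr, r with the constitutive level had a median of -0.374 and with the immune level one of -0.433, and their part in these levels was not tested.

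The 2 sets of library numbers differed in a few members. With limma, 1542 of all genes (13.5%) differed between libraries 31 to 59 and libraries 1 to 30, 808 higher (7.07%) and 734 lower (6.42%), and 4 of the 46 members, 2 higher and 2 lower. At an unadjusted p under 0.05 there were 10 members and 29.1% of all genes. Psmd1 lay between 58.4 and 83.8 normalized CPM (median 71.8) in libraries 1 to 30 and between 70.6 and 96.2 (median 77.7) in libraries 31 to 59. The ranges overlapped, and the log2 difference was 0.18 ± 0.04 (SE, adjusted p = 0.00184). Psme4 lay between 83.3 and 118.7 (median 102.5) and between 92.7 and 142 (median 117), with a log2 difference of 0.19 ± 0.04 (adjusted p = 0.00271).

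Psmg1 lay between 11.2 and 15.7 normalized CPM (median 13.2) in libraries 1 to 30 and between 9.50 and 17.5 (median 11.8) in libraries 31 to 59, and fell by 0.15 ± 0.05 on the log2 scale (adjusted p = 0.0320). Psmg4 lay between 2.14 and 4.89 (median 2.78) and between 1.76 and 3.36 (median 2.35), and fell by 0.22 ± 0.07 (adjusted p = 0.0281). With the length index as a covariate Psmd1 passed (adjusted p = 0.0238), and Psme4 (0.148), Psmg1 (0.881) and Psmg4 (0.631) did not, while Psma6 (0.0105) and Psmc3 (0.0191) passed as higher. With counted reads as a covariate Psmg1 (0.0640) and Psmg4 (0.131) did not pass. In the fit with the length index as a covariate all 31 constitutive slopes were positive, against 10 of 31 in the main fit. Without library 44, 8 members and 2440 genes passed.

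With animal number, in steps of 100, limma related 1626 genes (14.2%), 856 higher (7.49%) and 770 lower (6.73%), and 2 of the 46 members, both higher with higher numbers. At an unadjusted p under 0.05 there were 8 members and 28.9% of all genes. Psmf1 (values between 22.4 and 35.01 normalized CPM, median 27.97) rose by 0.21 ± 0.04 on the log2 scale (SE, adjusted p = 0.000208), and Psmd3, a cap subunit (between 67.2 and 109.3, median 82.8), by 0.14 ± 0.04 (adjusted p = 0.0222). Both passed in all 14 alternatives, with adjusted p up to 0.000433 for Psmf1 and 0.0322 for Psmd3. None of the immune genes passed (2 had an unadjusted p under 0.05, and edgeR called 0). With the length index as a covariate Psme1 (adjusted p = 0.0112), Psmb10 (0.0171) and Psme2 (0.0490) fell. In that fit 6 of the 46 members passed, and a larger share of all genes, 2110 of 11436. In the main fits of both comparisons the share of members called was below the share of all genes, which need not hold in the alternatives.

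The other lists are given by their counts, to be read against 7.07% of all genes higher and 6.42% lower in libraries 31 to 59, 7.49% higher and 6.73% lower with animal number, 1.45% higher and 0.988% lower with the interferon score, and 1.44% higher with the leukocyte score. Of the 28 interferon genes 6 fell with animal number, with a median change of -0.12, and none rose. Of the antigen processing genes 2 of 12 were higher in libraries 31 to 59, and 1 of 12 rose with the interferon score and 1 with the leukocyte score. Of the proteasome partners 4 of 19 were higher in libraries 31 to 59, 2 fell with animal number and none was related to either score (for the interferon and the leukocyte score, 3 each had an unadjusted p under 0.05, and edgeR called 0). Of the ubiquitin and p97 genes 4 of 13 were higher and 1 lower in libraries 31 to 59, and 1 fell with the interferon score. Of the NRF2 targets 3 of 6 were higher in libraries 31 to 59, and with animal number 1 rose and 2 fell.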

How the data were processed

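Liver RNA of male mice was sequenced from 50 stranded poly(A) libraries with 48 distinct animal numbers. Per the labels and the study's methods, reads were trimmed, placed on GRCm38.p5 by Hisat2 and counted by HTSeq 0.11.1, and the authors used edgeR to drop low genes and to scale. The settings for strand and multiple matches are not given in the sources used here. The deposited values are a normalized signal per gene, called normalized CPM here. Divided by the worth of 1 read they were whole (within 0.01) in 100% of cases, and depth was between 11965594 and 29976557 reads.

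The libraries formed 1 group. Symbols and exons came from GENCODE M21 and promoters from RefSeq. limma 3.58.1 (R 4.3.3) was fitted on log2(value + 0.5) to genes with a mean of at least 1, so that fold changes of low genes are understated. Tests were 2-sided, and Benjamini-Hochberg adjusted p under 0.05 was called. The quasi-likelihood test of edgeR 4.0.16 and size factors of DESeq2 1.42.0 were alternatives, run on the recovered reads, besides other pseudocounts, filters, covariates and libraries left out. TMM factors were also counted as an alternative, although they gave the main fits again. Correlations used Python 3.11.15, numpy 2.4.6 and scipy 1.17.1. The fits were tested on simulated data. Beyond animal numbers nothing says what separates the libraries, so p-values measure the spread between libraries, which may in part be technical.

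The members, lists and comparisons were chosen with earlier results of these data known. Named with values were the immune and catalytic genes, members on chromosome 4 or 6, members called, the 2 highest and 2 lowest members per kilobase and by percentile of variation, and the 8 genes most like each level, of which 1 is not reported here. Other genes named, library 44, the transcript length index and the ratios against the interferon score were chosen after seeing the data.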

Additional observations from a re-analysis of the deposited data

How the results depend on the processing

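Of 536 recomputed values (the counts, the ratios, the correlations, the genes called and the immune genes against both scores), 21 counts or ratios moved beyond 1.5 times or 1 SD, 11 genes or pairs lost their call, 2 gained one and 1 turned its sign. Other members that gained a call are counted in the totals of members below. For the sets of library numbers, the 1542 genes became 889 in a fit that held counted reads, 529 in one that held the transcript length index and 2440 without library 44, and the 4 members became 2 with counted reads and 8 without library 44. For animal number the 2 members became 6 with the length index and 4 with the library number set as a covariate. The count of 1626 genes became 2110 and 1773 in these fits, and so did not move beyond 1.5 times in either. For the interferon score the 279 genes became 450 with the length index, 140 without the libraries that share an animal number, 130 in libraries 1 to 30 and 13 in libraries 31 to 59. The 1 member became 4 with the length index and 0 with counted reads, without the libraries that share an animal number and in either set alone. For the leukocyte score the 170 genes became 68 with a mean of at least 5, 65 in libraries 1 to 30 and 29 in libraries 31 to 59. Fewer genes tested and fewer libraries can lower such counts, although without library 44 the count rose. What caused each of these moves was not tested.

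With the longest transcript length Psmb8/Psmb5 was 22.2% and Psmb10/Psmb7 11.3%. The correlation of Psmb8 and Psmb5 turned to -0.114 with the length index and did not pass with counted reads (r = 0.292, adjusted p = 0.0539 by permutation) or without library 44, and that of Psmb10 and Psmb7 passed in a fit holding what the 10 most abundant genes took of all reads (r = 0.305, adjusted p = 0.0348 by permutation). No paired analysis was possible because the libraries form 1 group. Depth limits the genes of low level, such as Psmg3 and Psmg4, and also steady subunits such as Psmc6, where counting error was 30.2% of the variance.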
